A study of Rattus norvegicus with 69 samples.

Results

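Wt1, Gata4, Gata1 and Dhh, genes by which Sertoli cells of the testis are recognised, were followed across dissected stages of the rat seminiferous tubule, isolated testicular cells and whole testis. The members were every probe set that the array's annotation assigned to these symbols, and there were 6, for 4 genes of 14217 with a symbol, among 31042: 2 for Wt1 (1369695_at and 1377223_at), 2 for Gata4 (1370293_at and 1387894_at), 1 for Gata1 (1368510_at) and 1 for Dhh (1384864_at). RNA of 69 samples from Sprague Dawley rats was hybridised to Affymetrix arrays, 1 array per sample. The 49 tubule samples fell into 10 stage groups of the cycle of the seminiferous epithelium (I, II-III, IV-V and VI, then VIIa.b, VIIc.d and VIII, and last IX-XI, XII and XIII-XIV), with 5 samples each except 4 for IV-V, and each pooled 25 segments from each of 2 rats aged 55 to 60 days. Among isolated cells there were 4 Sertoli cell samples (about 85% pure), 4 of pachytene spermatocytes, 4 of round spermatids and 3 of spermatogonia plus early spermatocytes, the germ cells being 85% to 95% pure after elutriation. The donors of Sertoli cells, round spermatids and pachytene spermatocytes were 55 to 60 days old, whereas those of spermatogonia plus early spermatocytes were 18 to 20 days old. The 5 whole testis samples carried no age in the sources used here. The group called IX-XI carried that name in its titles and IX-XII in its source names, so it may hold stage XII tubules.

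WT1 is a zinc finger transcription factor that Sertoli cells need from fetal life on to keep their identity. GATA4 and GATA1 are zinc finger factors that bind the letters GATA, GATA4 being made in Sertoli cells from fetal life and in other somatic cells of the testis, and GATA1 being known in the testis from Sertoli cells and elsewhere from red cell, platelet and mast cell precursors. Desert hedgehog, the product of Dhh, is a ligand that Sertoli cells secrete. It binds Patched receptors on Leydig and peritubular myoid cells, which frees Smoothened to activate the Gli factors. Many other Sertoli genes rise and fall as the germ cells around the cell pass through the stages, and the question put to the 6 probe sets was how constant they were by comparison.

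Because 3 of the 4 products are DNA-binding factors, the promoters of the set are shown with the letters such factors are known to bind. RefSeq promoter entries were matched for Wt1, Gata1 and Dhh, and the 250 bases before the annotated start on the assembly GRCr8 are printed 5′ to 3′ on the gene's strand. The windows are chr3:112021759-112022008 on the plus strand for Wt1, chrX:17201387-17201636 on the plus strand for Gata1, and chr7:131935353-131935602 on the minus strand for Dhh. Capitals mark GATA or its reverse complement TATC, and GTGGGAG, a string of the kind WT1 is known to bind.
Wt1: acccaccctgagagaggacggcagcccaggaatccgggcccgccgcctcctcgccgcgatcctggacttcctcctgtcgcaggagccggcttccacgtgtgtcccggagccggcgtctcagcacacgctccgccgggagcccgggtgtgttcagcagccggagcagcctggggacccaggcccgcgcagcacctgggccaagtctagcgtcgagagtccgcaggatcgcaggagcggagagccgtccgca
Gata1: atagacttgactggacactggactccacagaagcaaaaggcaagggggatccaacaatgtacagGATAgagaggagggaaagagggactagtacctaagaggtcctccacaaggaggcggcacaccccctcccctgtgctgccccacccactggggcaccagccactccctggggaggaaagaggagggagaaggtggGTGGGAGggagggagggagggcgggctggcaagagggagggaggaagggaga
Dhh: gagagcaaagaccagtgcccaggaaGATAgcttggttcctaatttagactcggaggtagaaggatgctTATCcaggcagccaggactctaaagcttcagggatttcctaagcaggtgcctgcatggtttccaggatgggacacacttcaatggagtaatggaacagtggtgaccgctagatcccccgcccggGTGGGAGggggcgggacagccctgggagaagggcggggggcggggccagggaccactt
Searched on both strands, GATA stood in the Gata1 window at 1 place and in the Dhh window at 2 places, and it stood somewhere in 55.9% of 33469 windows of this length. GTGGGAG stood at 1 place in the Gata1 window (52 to 46 bases before the start) and at 1 place in the Dhh window (58 to 52 bases before it), against 7.51% of all windows. Neither string stood in the Wt1 window. GC content was 71.6% for Wt1, 61.2% for Gata1 and 58.4% for Dhh, with a median of 51.2% over all windows. These matches describe letters, not bound sites, and no binding was measured here.

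Array medians lay between 30.9 and 58.2 signal units, and samples of a group correlated with one another at a mean Pearson r of 0.898 to 0.970 over log2 levels. The ratio of 3′ to 5′ beta-actin probe sets, a sign of RNA or labelling quality, was 2.65 and 2.72 in IX-XI replicates 2 and 3 against 1.61 to 1.81 in the other IX-XI samples, and 2.86 and 2.71 in VIIc.d replicates 2 and 3 against 1.76 to 1.94. It was 3.64 in replicate 3 of spermatogonia plus early spermatocytes. The same ratio for Gapdh was highest among stage means at VIIc.d (1.54 ± 0.367) and VIII (1.34 ± 0.241), against 1.06 to 1.22 in the others, and ran from 1.75 to 2.44 in round spermatids and from 1.003 to 1.21 in Sertoli cells. The part of these ratios in the results below was not tested. In bulk RNA such as this, fewer cells of a type and less RNA per cell cannot be told apart. No detection calls came with the signals, so that a weak signal is not shown to lie above background.

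None of the 6 probe sets was stage-regulated, a call that needed a Benjamini-Hochberg adjusted p under 0.05 in limma's moderated F-test over the 10 stages and at least 2-fold between the highest and lowest stage means. Over all 22258 tested probe sets, 32.5% met that call. The F-test alone was passed by 3 of the 6 (Wt1 1377223_at, Gata4 1387894_at and Gata1), against 54.3% of all tested probe sets, and the same 3 had an unadjusted p under 0.05, as 57.8% of all did. The ranges between highest and lowest stage were 1.35-fold and 1.37-fold for Gata4, 1.44-fold and 1.71-fold for Wt1, 1.73-fold for Gata1 and 2.21-fold for Dhh, on the log2 scale with 5.11 added to each signal. The median range of all tested probe sets was 1.85-fold. At a threshold of 1.5-fold instead of 2-fold, Wt1 1377223_at and Gata1 met the call, 2 of 6, against 49.7% of all tested probe sets. All 6 passed the filter on low signal in every comparison.

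**Figure D1:**
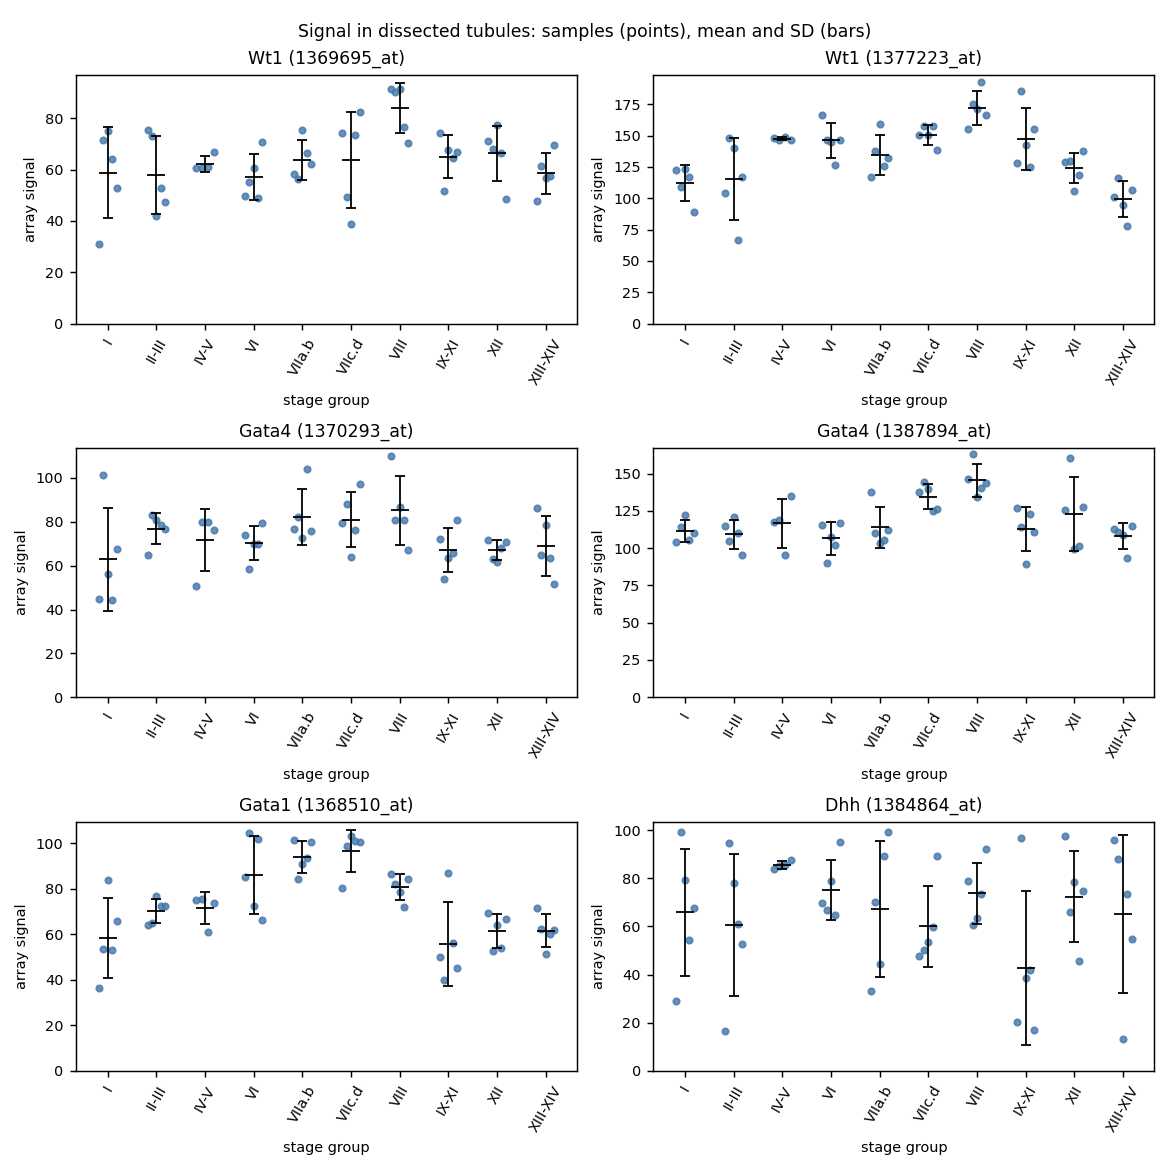
Array signal (linear axis from 0) of the 6 probe sets in each tubule sample by stage group, with group mean and SD as bars. The probe set Wt1 1377223_at falls from 172 at VIII to 99.2 at XIII-XIV, Gata4 1387894_at stays between 107 and 146, Gata1 peaks at VIIa.b and VIIc.d, and the Dhh samples scatter from 13.3 to 99.2.

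The Wt1 probe set 1377223_at was highest at stage VIII and lowest at XIII-XIV and I. The VIII samples gave 156, 175, 171, 192 and 167 signal units, and the XIII-XIV samples 101, 116, 94.5, 77.5 and 107. Every VIII sample lay above every XIII-XIV sample, as was so of the highest and lowest stages for 56% of all tested probe sets. The means were 172 ± 13.5 (SD, n = 5) and 99.2 ± 14.4 (SD, n = 5), with a limma F-test adjusted p of 1.64e-05. Stage means between these extremes were 112 ± 14.2 at I, 115 ± 32.5 at II-III, 148 ± 1.36 at IV-V (n = 4), 146 ± 14.2 at VI and 134 ± 15.7 at VIIa.b. They were 151 ± 7.93 at VIIc.d, 147 ± 24.6 at IX-XI and 124 ± 12.2 at XII (SD, n = 5). In the order of stage means, each neighbour overlapped the next in its samples. Against the mean of the 10 stages, limma's contrasts put VIII 0.36 ± 0.09 (SE) higher on the log2 scale (adjusted p = 0.00116), XIII-XIV -0.41 ± 0.09 away (adjusted p = 1.86e-04), I at -0.24 (adjusted p = 0.0368) and II-III at -0.24 (adjusted p = 0.0379).

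The other Wt1 probe set, 1369695_at, was highest at VIII as well, but its spread within stages was larger. The VIII samples gave 91.2, 90.2, 91.5, 76.5 and 70.3, with a mean of 83.9 ± 9.89 (SD, n = 5). The stage with the lowest log2 mean was I, with 31.2, 71.3, 74.8, 64.0 and 52.8. The highest I sample lay within the VIII range, so the groups overlapped, and the F-test was not passed (limma adjusted p = 0.266). Its other stage means lay between 57.0 ± 8.98 at VI and 66.3 ± 10.8 at XII. The contrast of VIII with the mean of stages did pass, at 0.39 ± 0.12 (SE) on the log2 scale (limma adjusted p = 0.0131).

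Gata4 had the narrowest range of the 4 genes. For probe set 1387894_at the VIII samples gave 146, 164, 134, 140 and 144, and the samples of VI, the lowest stage, 115, 90.2, 108, 102 and 117. These groups did not overlap, and their means were 146 ± 11.0 and 107 ± 10.9 (SD, n = 5 each; limma F-test adjusted p = 0.00847). The second highest stage was VIIc.d at 135 ± 8.55, and its samples, 125 to 145, overlapped those of VIII. The remaining stage means lay between 108 ± 8.60 at XIII-XIV and 123 ± 24.8 at XII. Against the mean of the 10 stages only VIII passed, at 0.30 ± 0.07 (SE) on the log2 scale (limma adjusted p = 0.00157).

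The second Gata4 probe set, 1370293_at, was also highest at VIII on average, with samples of 110, 80.9, 86.8, 80.8 and 67.3. The I samples gave 44.9, 101, 56.4, 44.4 and 67.6, so that 1 of them stood among the higher VIII values. The F-test gave a limma adjusted p of 0.229, and none of its 10 stages passed against their mean. Without I replicate 2, the high sample, the range rose to 0.63 on the log2 scale and the F-test was passed (limma adjusted p = 0.0222). Across all 49 tubule samples this probe set ran from 44.4 to 110, with a median of 74.2.

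Gata1 was highest at mid-cycle and lowest at IX-XI and I. The VIIc.d samples gave 80.3, 98.6, 103, 101 and 100, with a mean of 96.6 ± 9.28 (SD, n = 5). The IX-XI samples gave 49.95, 39.9, 86.8, 55.9 and 44.99, with a mean of 55.5 ± 18.5 (SD, n = 5). IX-XI replicate 3, one of the samples with a high actin ratio, stood at 86.8 and alone made the groups overlap. The other means were 58.4 ± 17.6 at I, 70.1 ± 5.40 at II-III, 71.3 ± 7.04 at IV-V (n = 4), 85.9 ± 17.1 at VI and 94.0 ± 7.07 at VIIa.b. They were 80.6 ± 5.61 at VIII, 61.3 ± 7.58 at XII and 61.4 ± 7.20 at XIII-XIV (SD, n = 5). The F-test gave a limma adjusted p of 2.01e-05. With each sample centred on the other member genes, limma's F-test was no longer passed by Gata1 (adjusted p = 0.0522) or Gata4 1387894_at (0.192). Against the mean of stages, VIIa.b was 0.37 ± 0.11 (SE) and VIIc.d 0.40 ± 0.11 higher on the log2 scale (limma adjusted p = 0.00627 and 0.00244), I stood at -0.32 (adjusted p = 0.0184) and IX-XI at -0.38 (adjusted p = 0.00354).

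The summed signal of the 9 Sertoli markers on the array moved in the same part of the cycle, from 4914 ± 313 at XIII-XIV to 8150 ± 314 at VIIa.b (SD, n = 5), and several of those markers are themselves cyclic. The summed signal of the 8 red cell, platelet and mast cell markers on the array ran the other way, with 309 ± 39.6 at VIIa.b and 688 ± 40.2 at XIII-XIV. Of 6 of these markers tested over stages, 2 were stage-regulated, against 32.5% of all tested probe sets. No marker was listed at 0 in any sample. The part of either sum in the Gata1 pattern was not tested.

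Dhh had the widest spread between samples of a stage, with a residual SD of 0.61 on the log2 scale against 0.16 to 0.27 for the other 5 probe sets. The IV-V samples, the highest group, agreed closely at 83.7, 85.2, 85.7 and 87.6. The IX-XI samples, the lowest group, gave 20.2, 96.7, 38.4, 42.1 and 16.7. IX-XI replicate 2, which had a high actin ratio, exceeded every IV-V sample, and the other 4 lay below all of them. Low single samples stood in other stages too, at 16.3 in II-III replicate 1, 28.9 in I replicate 1 and 13.3 in XIII-XIV replicate 3. The F-test gave a limma adjusted p of 0.280, while IX-XI alone stood at -0.70 ± 0.24 (SE) from the mean of stages on the log2 scale (adjusted p = 0.0223). The other 9 stage means lay between 60.1 ± 17.0 at VIIc.d and 85.5 ± 1.61 (SD, n = 4) at IV-V, and their samples overlapped from each to the next.

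Counted by stage, VIII was the group with the most members above the mean of stages: both Wt1 probe sets and Gata4 1387894_at, 3 of 6, where 13.6% of all tested probe sets passed in that direction. VIII was picked from all stages by this count, and both Wt1 probe sets measure the same gene. Sums of 2 other marker lists were highest at VIII too. The 5 spermatogonia markers on the array summed to 787 ± 69.01 there and 348 ± 17.2 at VI (SD, n = 5). Their sum was 1587 ± 129 in isolated Sertoli cells (SD, n = 4) and 809 ± 147 in spermatogonia plus early spermatocytes (SD, n = 3), so it was not particular to spermatogonia. The 6 peritubular myoid markers summed to 633 ± 72.7 at VIII and 450 ± 70.3 at IX-XI (SD, n = 5). Other stages lay close to VIII in the myoid sum, with 625 ± 39.3 at VIIc.d and 619 ± 55.8 at I. The part of either list in the VIII values was not tested. Gata1 passed at VIIa.b and VIIc.d, where 11.6% and 12.6% of all probe sets were higher. Gata1 and Dhh were lower at IX-XI (14.1% of all probe sets), Wt1 1377223_at and Gata1 at I (15.1%), Wt1 1377223_at at II-III (13.9%) and at XIII-XIV (15.5%). In all, 11 of the 60 comparisons of a member with the mean of stages passed, against 27% of such comparisons over all tested probe sets. The 95% confidence intervals of those comparisons reached at most 1.37-fold from the mean for Gata4 1387894_at, 1.38-fold for Gata4 1370293_at, 1.53-fold for Gata1, 1.504-fold for Wt1 1377223_at and 1.56-fold for Wt1 1369695_at. For Dhh they reached 2.29-fold, so that a 2-fold shift of Dhh at IX-XI was not outside the interval.

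**Figure D2:**
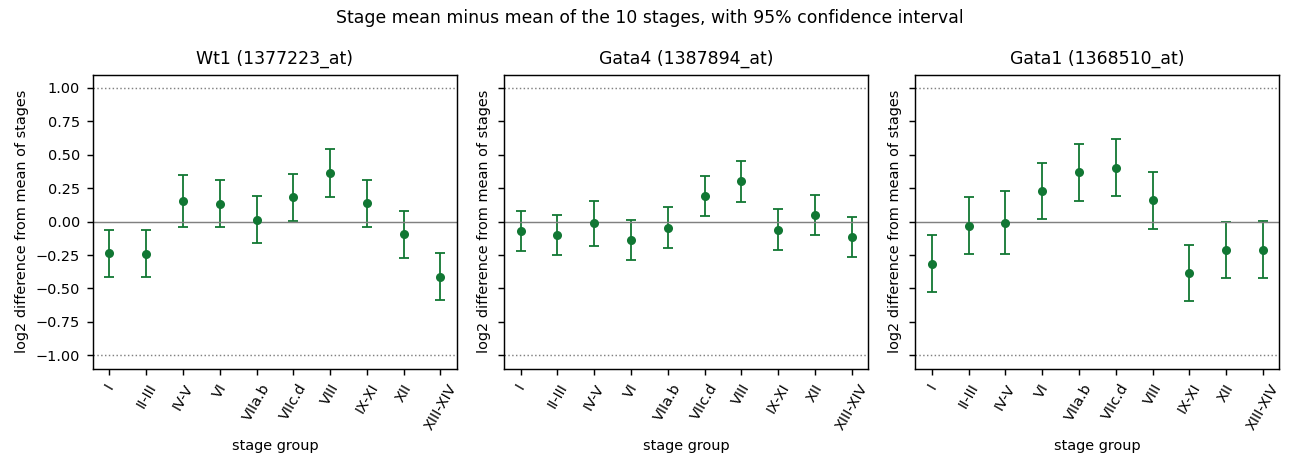
Difference of each stage mean from the mean of the 10 stages (log2 scale, points) with its 95% confidence interval (bars) for the 3 probe sets that passed the F-test; dotted lines mark 2-fold. All intervals lie inside 2-fold, with VIII at 0.36 for Wt1 and 0.30 for Gata4, and Gata1 at 0.40 in VIIc.d and -0.38 in IX-XI.

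No step from a stage to the next was called for any member at 2-fold, out of 60 member steps, where 10.9% of all tested probe sets were called at 1 step or more; 8 of the 60 had an unadjusted p under 0.05 in limma's contrasts, against 19% of such steps over all probe sets. At any fold, the step from VIII to IX-XI passed for Gata4 1387894_at at -0.36 ± 0.11 (SE) on the log2 scale (limma adjusted p = 0.0193) and for Gata1 at -0.54 ± 0.16 (adjusted p = 0.0113), where 15.7% of all probe sets passed. These steps moved with single samples. The Gata1 step had an adjusted p of 0.0566 without IX-XI replicate 2 and stood at -0.71 (adjusted p = 6.48e-04) without IX-XI replicate 3, and the Gata4 step one of 0.0988 without IX-XI replicate 3. Dhh stood at -0.93 on the log2 scale for the same step and did not pass (adjusted p = 0.0752). Without IX-XI replicate 2, Dhh was called at that step (-1.26, limma adjusted p = 0.0122; 3.41% of all probe sets in the full fit) and at the step from IX-XI to XII (1.21, adjusted p = 0.0292; 1.33% of all probe sets). Without the 4 samples with high actin ratios both Dhh steps were called as well, at -1.40 (adjusted p = 0.0154) and 1.35 (adjusted p = 0.0441), the Gata1 step stood at -0.63 (adjusted p = 0.00754), and the Gata4 step was not passed (adjusted p = 0.211).

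Other Sertoli genes called higher in Sertoli cells had a wider median stage range than the probe sets of Wt1, Gata4 and Gata1. They came from 2 lists written with earlier results of these data known, so the comparison of ranges is a description and not a test. Of these lists, 25 genes were called higher in Sertoli cells against germ cells. Of the 25, 14 were stage-regulated and 21 passed the F-test, against 32.5% and 54.3% of all tested probe sets. The median range of the 25 was 2.39-fold, or 1.26 on the log2 scale. Dhh lay below it at 1.15 with all samples, and above it at 1.47 without IX-XI replicate 2. Of the 25, 3 lay below 1.5-fold, as did 3 of the 6 member probe sets. The lowest were Clu (clusterin, 1.37-fold), Cldn11 (a tight junction protein, 1.40-fold) and Cited2 (a transcriptional cofactor, 1.46-fold). The widest were Prnd (doppel, a prion-like protein, 242-fold) and Ctsl (cathepsin L, 26.7-fold), both highest at VIIa.b. The Ctsl means were 2021 ± 98.3 at VIIa.b and 70.7 ± 4.37 at XIII-XIV (SD, n = 5). Among the 8 measured genes of the list of other Sertoli transcription factors, 2 were stage-regulated, against 32.5% of all tested probe sets. Only the same 2 passed the F-test, against 54.3%. The median range of the 8 was 1.67-fold, inside the 1.35-fold to 2.21-fold of the members. The 2 were Nr0b1 (a nuclear receptor) and Dmrt1 (a DM domain factor). Nr0b1 gave 165 ± 22.9 at IX-XI against 53.9 ± 10.4 at I (2.89-fold, limma F-test adjusted p = 3.25e-14). Dmrt1 gave 129 ± 4.54 at IV-V against 53.0 ± 33.3 at IX-XI (2.80-fold, limma F-test adjusted p = 7.69e-06).

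The wider set of 1628 probe sets with at least 4-fold more signal in Sertoli cells against germ cells serves as a scale: 49.6% were stage-regulated, and their median range was 2.18-fold. Gata4 stood at the 5.16 and 5.59 percentiles of range within that set, Wt1 at 9.77 and 27.1, Gata1 at 28.1 and Dhh at 51.2. Both Wt1 probe sets and Gata4 1387894_at belong to that set, and the other 3, below 4-fold, are placed against it for scale. The percentiles are descriptions and were not tested. Means in pachytene spermatocytes and round spermatids were 48.6 and 57.9 for Gata4 1387894_at, against 118 over the tubule samples. For Gata4 1370293_at they were 46.0 and 50.9, against 73.4. The part of background or of other cells' signal in the narrow ranges was not tested.

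**Figure D3:**
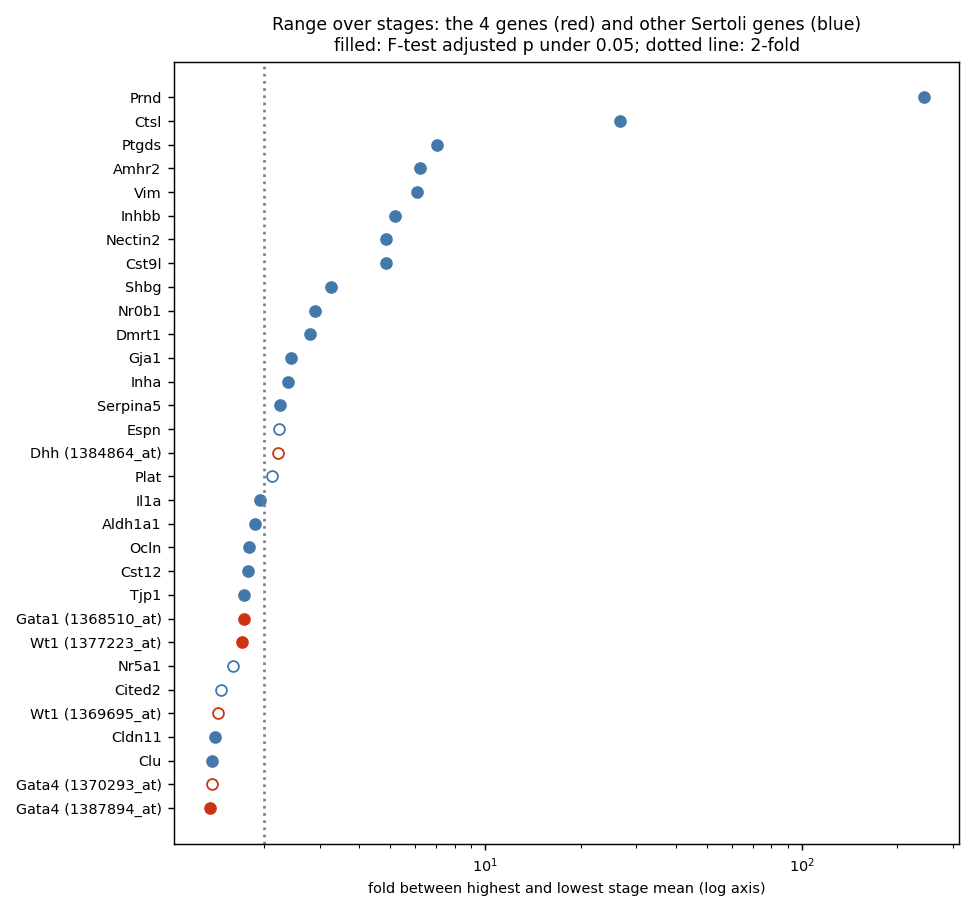
Fold between the highest and lowest stage mean (log axis) for the 6 probe sets of Wt1, Gata4, Gata1 and Dhh (red) and the 25 other Sertoli genes called higher in Sertoli cells (blue); filled points passed the F-test. Both Gata4 probe sets lie at 1.35-fold and 1.37-fold, while Prnd reaches 242-fold, and the Dhh point at 2.21-fold is open because it did not pass.

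In isolated cells, both Wt1 probe sets, Gata4 1387894_at and Dhh were higher in Sertoli cells than in the mean of the 3 germ cell groups. A call, here and below, needed an adjusted p under 0.05 from limma and at least 2-fold, and 4 of the 6 probe sets met it in the higher direction, against 24.1% of 20253 tested probe sets. The 2 not called, Gata4 1370293_at and Gata1, passed on p but lay at 1.80-fold and 1.90-fold. None was called lower or had an unadjusted limma p under 0.05 in that direction, against 29.7% of all probe sets called lower.

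Wt1 set Sertoli cells apart from all germ cells. Probe set 1377223_at gave 1180, 1038, 931 and 903 in Sertoli cells, against 312, 254 and 222 in spermatogonia plus early spermatocytes. It gave 45.8, 37.1, 57.2 and 32.9 in pachytene spermatocytes and 37.8, 31.1, 40.5 and 28.8 in round spermatids. No Sertoli sample overlapped a germ cell sample, and the younger germ cell group lay above both later ones. The contrast with the germ cell mean was 12.8-fold (limma adjusted p = 1.10e-13). Probe set 1369695_at gave 597, 458, 374 and 428 in Sertoli cells against 138, 89.4 and 65.1 in spermatogonia plus early spermatocytes and 26.5 to 40.6 in the later germ cells, a contrast of 8.81-fold (limma adjusted p = 9.60e-12). Against spermatogonia plus early spermatocytes alone, both were called at 3.82-fold and 4.71-fold (adjusted p = 7.61e-08 and 1.93e-07), where 12% of all probe sets were called higher.

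Gata4 signal was high in Sertoli cells, and likewise in the younger germ cell preparation. Probe set 1387894_at gave 901, 646, 770 and 599 in Sertoli cells, against 544, 609 and 352 in spermatogonia plus early spermatocytes, so that these groups overlapped. It gave 45.9 to 53.2 in pachytene spermatocytes and 55.0 to 63.1 in round spermatids, far below both. Against the germ cell mean it was 6.11-fold higher (limma adjusted p = 3.37e-12), and against spermatogonia plus early spermatocytes 1.47-fold (adjusted p = 0.00804), short of the call. Pachytene spermatocytes were 9.20-fold lower than spermatogonia plus early spermatocytes (adjusted p = 6.69e-12), where 28.6% of all probe sets were called lower. Probe set 1370293_at gave 198, 83.9, 79.2 and 72.3 in Sertoli cells and between 33.8 and 70.7 in all germ cell samples. Its Sertoli mean rests on replicate 1, without which the difference from germ cells fell from 0.85 to 0.53 on the log2 scale.

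The preparation of spermatogonia plus early spermatocytes held signal of other somatic cells. The sum over the 8 Leydig cell markers, all on the array, ran from 6976 to 10214 there and from 6041 to 7880 in Sertoli cells. It ran from 235 to 466 in pachytene spermatocytes and round spermatids and from 229 to 482 in tubules. The sum over the 9 Sertoli markers was 3650 to 5011 in spermatogonia plus early spermatocytes, 15337 to 23731 in Sertoli cells and 406 to 957 in the later germ cells. The 6 peritubular myoid markers summed to 508 to 680 in spermatogonia plus early spermatocytes and 2289 to 5533 in Sertoli cells. They summed to 246 to 310 in pachytene spermatocytes, 525 to 574 in round spermatids and 370 to 727 in tubules. In spermatogonia plus early spermatocytes the myoid sum thus lay within the tubule range. The part of these cells in the Wt1, Gata4 and Dhh signals of either preparation was not tested.

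Gata1 differed less between preparations than Wt1. It gave 115, 90.8, 78.7 and 68.8 in Sertoli cells. Spermatogonia plus early spermatocytes gave 39.1, 54.3 and 76.6, against 29.6, 38.1, 33.6 and 38.9 in pachytene spermatocytes and 42.0 to 42.6 in round spermatids. Sertoli samples lay above all later germ cells and overlapped the younger group. The contrast with the germ cell mean was 1.90-fold (limma adjusted p = 5.98e-05), and it reached 1.03 on the log2 scale, and so the call, without Sertoli cells replicate 4. The red cell, platelet and mast cell markers summed to 1465 to 2250 in spermatogonia plus early spermatocytes, 761 to 1012 in Sertoli cells and 262 to 351 in the later germ cells. Of 6 of these markers tested in isolated cells, 1 was called higher in Sertoli cells than in the germ cell mean and 3 lower. Over all tested probe sets these shares were 24.1% and 29.7%. The sum therefore does not describe each marker, and the part of these markers' cells in the Gata1 signal was not tested.

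Dhh gave 137, 124, 184 and 129 in Sertoli cells, against 90.9, 93.8 and 133 in spermatogonia plus early spermatocytes. It gave 12.6, 29.2, 19.7 and 68.4 in pachytene spermatocytes and 55.0, 60.7, 55.2 and 58.9 in round spermatids. Sertoli cells overlapped the younger germ cell group only, and 1 pachytene sample stood apart from the other 3. The contrast with the germ cell mean was 2.43-fold (limma adjusted p = 1.30e-04), and that with spermatogonia plus early spermatocytes 1.34-fold (adjusted p = 0.267, 95% confidence interval 0.83 to 2.16). Sertoli and germ cell samples did not overlap, with Sertoli cells higher, for 3 of the 6 probe sets (both of Wt1 and Gata4 1370293_at), against 13.7% of all tested probe sets.

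**Figure D4:**
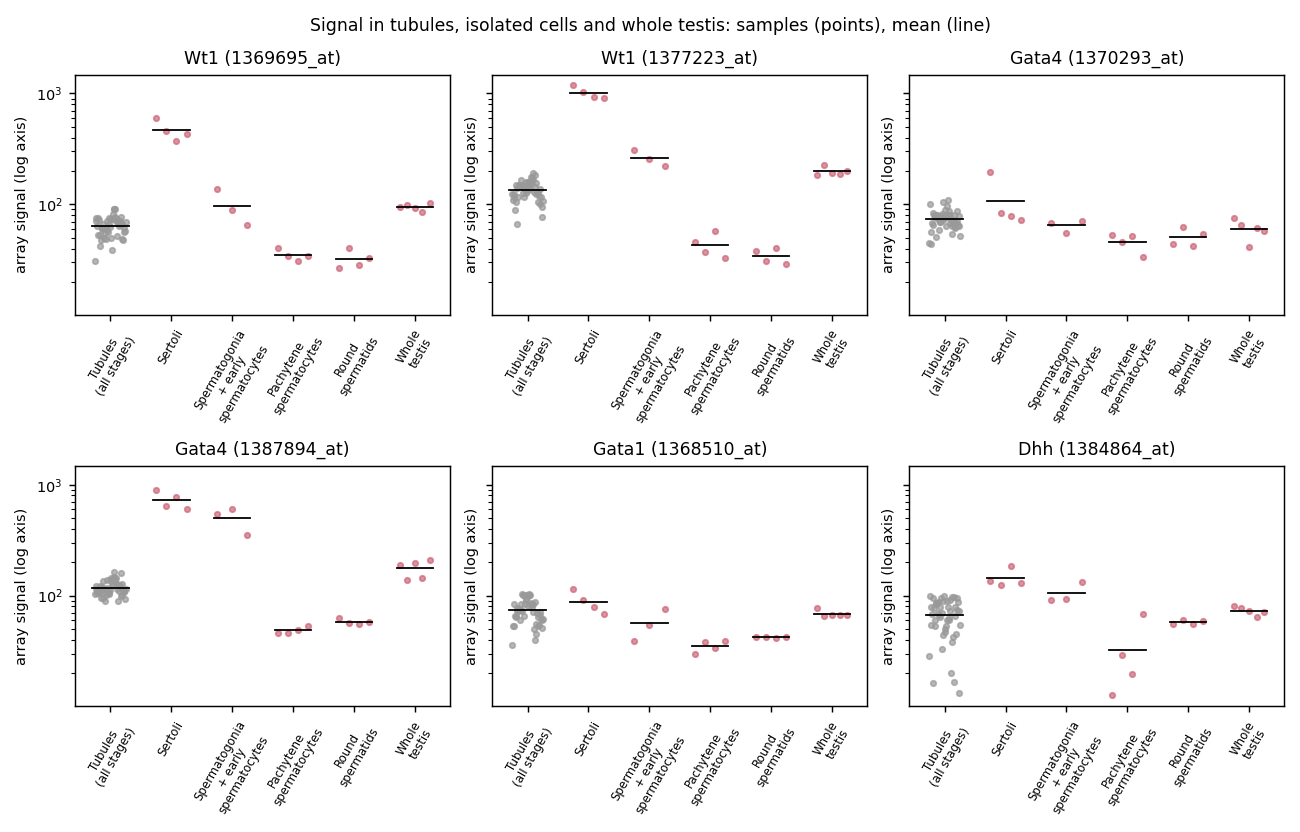
Array signal (log axis) of the 6 probe sets in the 49 tubule samples (grey), the isolated cells and whole testis (red), with group means as lines. Wt1 and Gata4 1387894_at reach 464 to 1013 in Sertoli cells, whereas Gata1 stands at 88.3 there, within the tubule range of 36.2 to 105.

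Set against the tubules from which such cells come, 4 of the 6 probe sets were called higher in isolated Sertoli cells, against 23.8% of 23225 tested probe sets, and none lower, against 36.3%. Wt1 was 6.85-fold and 7.36-fold higher, Gata4 1387894_at 5.93-fold and Dhh 2.20-fold (limma adjusted p = 2.75e-23, 3.18e-30, 1.75e-30 and 4.11e-04). All Sertoli samples lay above all 49 tubule samples for the same 4 probe sets, as they did for 21% of all tested probe sets. The Dhh call was lost under quantile normalization, at 0.87 on the log2 scale (adjusted p = 0.00754). Gata4 1370293_at was 1.35-fold higher (adjusted p = 0.00921), and without Sertoli cells replicate 1 the difference fell from 0.43 to 0.11 on the log2 scale (limma adjusted p = 0.499). Gata1 was 1.20-fold higher (adjusted p = 0.0601, 95% confidence interval 0.999 to 1.44). Neither was called.

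The mean tubule signal of the Wt1 probe sets was 13.7% and 13.3% of their mean in Sertoli cells, and that of Gata4 1387894_at 16.2%. It was 46.3% for Dhh, 67.7% for Gata4 1370293_at, whose Sertoli mean rests on replicate 1, and 83.3% for Gata1. For the 25 other Sertoli genes the median share was 19.4%, between 5.32% and 56.3%, so that Gata1 and Gata4 1370293_at lay above all of them. Both probe sets are weak, with tubule means of 73.6 and 73.4 against a table median of 43.7. The part of background signal in their shares was not tested. Gata1 in the VIIa.b and VIIc.d tubules, at 94.0 and 96.6, stood at or above its mean of 88.3 ± 20.0 (SD, n = 4) in the isolated cells, within the spread of those samples.

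**Figure D5:**
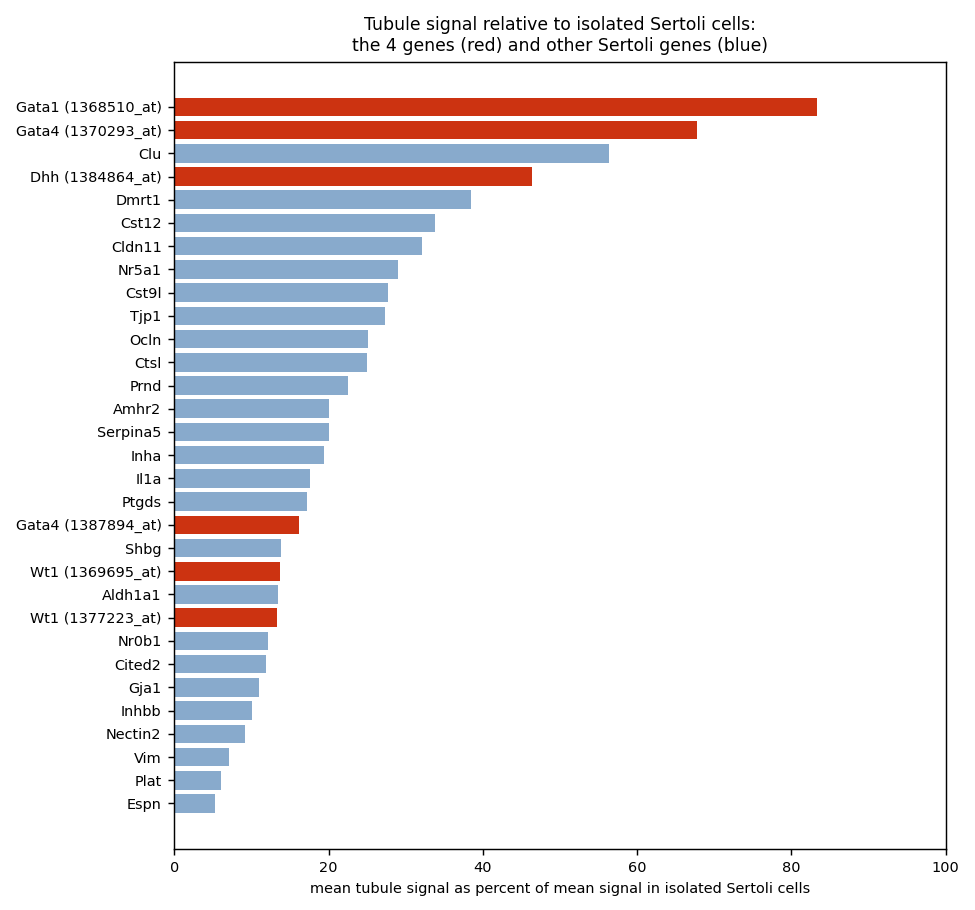
Mean tubule signal as a percent of the mean signal in isolated Sertoli cells (bars from 0) for the 6 probe sets (red) and the 25 other Sertoli genes (blue). Gata1 at 83.3% and Gata4 1370293_at at 67.7% lie above every other Sertoli gene plotted, but are weak signals not shown to lie above background. Wt1 at 13.7% and 13.3% lies below the median of 19.4%.

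In whole testis, which holds interstitial cells as well, no member was called against the mean of the stages, where 2.31% of 22504 tested probe sets were called higher and 1.2% lower. By unadjusted limma p under 0.05, 3 of the 6 were higher and 1 lower, against 19.4% and 23.3% of all tested probe sets. Wt1 1377223_at gave 185, 227, 193, 188 and 200 in whole testis, with a mean of 199 ± 16.9 (SD, n = 5) against 135 ± 26.4 over the 49 tubule samples. Gata4 1387894_at gave 188, 140, 198, 144 and 210, with a mean of 176 ± 32.1 against 118 ± 17.3. Both overlapped the highest tubule samples, at 192 and 164, and for 0 of the 6 did all whole testis samples exceed all tubule samples, as 0.827% of probe sets did. These probe sets and Wt1 1369695_at were 1.48-fold, 1.46-fold and 1.48-fold higher and passed on p (limma adjusted p = 6.63e-06, 2.02e-06 and 6.94e-04) without reaching 2-fold. Gata1 gave 78.0, 65.8, 66.3, 67.3 and 66.5, at 0.96-fold of the tubules (adjusted p = 0.743), and Dhh 63.8 to 80.4, at 1.17-fold (adjusted p = 0.531). Gata4 1370293_at stood at 0.83-fold (adjusted p = 0.0852). The Leydig marker sum in whole testis was 2206 to 2784, and its part in these differences was not tested.

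Ordered by level over all 15 groups, Wt1 and Gata4 1387894_at ran from Sertoli cells through spermatogonia plus early spermatocytes, whole testis and stage VIII to the other stages, and then to the later germ cells. For both Wt1 probe sets, the ranges of neighbouring groups overlapped except between Sertoli cells and spermatogonia plus early spermatocytes and between the lowest stage and pachytene spermatocytes. For Gata4 1387894_at the gaps lay between spermatogonia plus early spermatocytes and whole testis, between stage VI and round spermatids, and between round spermatids and pachytene spermatocytes. Gata1 had VIIc.d and VIIa.b above Sertoli cells in this order, and its only gap was between round spermatids and pachytene spermatocytes. Dhh had its only gap between spermatogonia plus early spermatocytes and stage IV-V, and Gata4 1370293_at had none.

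Over the means of the 15 groups, the 3 genes most like Wt1 1377223_at among 17499 probe sets were Foxo3, Srp54a and Rras2, each at Pearson r = 0.980. For Gata4 1387894_at they were Fermt2 (r = 0.994), Csrp1 (0.986) and Stx4 (0.985). For Gata1 they were Peds1 (0.908), Suox (0.907) and Eppin (0.902), and for Dhh Ptms (0.922), Rasgef1b (0.920) and Trim26 (0.914). The points share arrays and their scaling, and for Wt1 and Gata4 the value in isolated Sertoli cells lies far from the others. Over the 49 tubule samples, which share those arrays, Wt1 1377223_at and Gata4 1387894_at correlated at r = 0.396, and the 2 probe sets of Wt1 at 0.225 and those of Gata4 at 0.262.

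Among other GATA factors and their cofactors, 7 were on the array. Of the 6 tested over stages, 0 were stage-regulated and 0 passed limma's F-test alone, against 32.5% and 54.3% of all tested probe sets. In isolated cells 1 of 4 tested was called higher in Sertoli cells and 3 lower, against 24.1% and 29.7% of all tested probe sets. With so few genes, these counts describe the list only. Called higher was Gata6, at 284 ± 53.8 (SD, n = 4) and 5.48-fold above germ cells (limma adjusted p = 1.35e-10). Called lower were Gata2 (2.81-fold), Zfpm2, the FOG2 cofactor of GATA4 (3.31-fold), and Trps1, a GATA-type repressor (2.50-fold). The Zfpm2 signal was 5.55 ± 1.24 in Sertoli cells and 53.2 ± 6.11 (SD, n = 3) in spermatogonia plus early spermatocytes.

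Of the genes reported as targets of GATA4, GATA1 or WT1, 12 were on the array and 11 were tested. Of these, 5 were stage-regulated (Inha, Inhbb, Star, Dmrt1 and Nr0b1), with a median stage range of 2.26-fold, against 32.5% of all probe sets stage-regulated. In isolated cells 8 were called higher and 1 lower in Sertoli cells, against 24.1% and 29.7% of all probe sets. Inhbb, the inhibin beta B subunit, was highest at I (72.4 ± 17.1) and lowest at VI (11.1 ± 8.61), and Inha, the alpha subunit, was highest at II-III (272 ± 24.3) and lowest at VIIa.b (111 ± 10.4; SD, n = 5). Star, a cholesterol transport protein, was highest at VIIc.d (58.6 ± 12.7) and lowest at II-III (25.3 ± 13.3; SD, n = 5). Star is also on the Leydig marker list. It is among the genes called higher in Sertoli cells, at 368 ± 23.0 there and 471 ± 200 in spermatogonia plus early spermatocytes (SD). Which cells gave its signal was not tested. Dhh is itself on this list.

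Of the hedgehog pathway, 11 genes besides Dhh were on the array. Of 6 tested over stages, 1 was stage-regulated, against 32.5% of all tested probe sets. It was Sufu, an inhibitor of Gli factors, with 2486 ± 111 at VIII and 116 ± 33.0 at II-III (SD, n = 5). Sufu stood at 934 ± 130 in round spermatids and 30.4 ± 19.1 in Sertoli cells (SD, n = 4 each). Of 7 tested in isolated cells, 0 were called higher in Sertoli cells and 3 lower, against 24.1% and 29.7% of all tested probe sets. The 3 were Ihh, another hedgehog ligand (4.57-fold), Hhip, a hedgehog binding inhibitor (4.45-fold), and Sufu (6.57-fold). Counted without regard to direction or fold, Smo passed on p as well (1.78-fold lower, limma adjusted p = 1.03e-04). Genes of the responding side had their strongest signal in spermatogonia plus early spermatocytes: Gli1 299 ± 113, Gli2 128 ± 18.8, Boc 140 ± 45.02 and Hhip 108 ± 14.6 (SD, n = 3), against 27.1 ± 10.3, 41.8 ± 12.6, 16.0 ± 9.50 and 4.02 ± 3.17 in Sertoli cells (SD, n = 4). The Leydig marker sums of these preparations overlapped, as given above, and which cells gave the signal was not tested.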

How the data were processed

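Per the labels, RNA was extracted with Trizol and RNeasy columns and biotinylated cRNA was made from 6 µg. The deposited values are signal intensities on a linear scale, 1 per probe set and sample, and the submitters' processing notes name MAS5 without a version. The authors scaled each array to a mean near 100 after trimming 2% of probe sets at each end, as the values show. Of 31099 probe sets, 57 controls were left out. Symbols came from the platform annotation, updated through RefSeq (GRCr8). Members and gene lists were chosen with earlier results of these data known.

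To each signal 5.11 was added (the table's 10th percentile) before taking log2. A probe set was tested where it exceeded 43.7, the table's median, in at least 3 samples of the fit. limma 3.58.1 in R 4.3.3 (variance trend, two-sided) was fitted over all tested probe sets, with Benjamini-Hochberg adjustment within each contrast. Fits held the 49 tubule samples, the 15 isolated cell samples, or tubules with Sertoli cells or whole testis. A gene of a list with several probe sets was represented by its strongest one. All probe sets of the 4 genes are named. Of each list, members that passed a call could be named, with values for at most 6, as could family and pathway members that did not pass; some of both are only counted. Named too are 3 genes per member gene with the most similar group means. Prnd, Ctsl, Clu, Cldn11 and Cited2 were named as the widest and narrowest ranges after their values were seen. p-values measure the spread between samples, which the labels call independent. Samples with the same replicate number may share an origin, as given below. Precision is limited by having 3 to 5 arrays per group. In simulated data without other differences, probe sets were changed in stage VIII or in Sertoli cells alone. By adjusted p without the fold threshold, the stage comparison recovered 54 of 100 changed 2-fold and 95 of 100 changed 4-fold among 22258. The Sertoli comparison recovered 75 and 100 of 100 among 20253. In the data 54.3% of tested probe sets passed the F-test, so the adjustment differed and these recoveries are not those of the calls above. Constants, quantile normalization, no filter, no variance trend, centring on the other members, a 1.5-fold threshold, a replicate block, a fit of all samples and leaving out samples were the alternatives. No 2 samples had identical values; the highest correlation was 0.978.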

Additional observations from a re-analysis of the deposited data

Results flagged for a closer look

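Of 84 groups of 4 or 5 samples, 8 held a sample far from the others of its group by Dixon's criterion at the 95% level, which chance meets in about 1 of 20 groups. Gata4 1370293_at stood at 198 in Sertoli cells replicate 1 against 72.3 to 83.9 in the others, and at 50.6 in IV-V replicate 2 against 76.1 to 79.9. Gata4 1387894_at stood at 138 in VIIa.b replicate 1 against 103 to 113, and at 93.2 in XIII-XIV replicate 4 against 109 to 115. Gata1 stood at 60.8 in IV-V replicate 4 against 73.9 to 75.5, at 80.3 in VIIc.d replicate 1 against 98.6 to 103, and at 78.0 in whole testis replicate 1 against 65.8 to 67.3. Wt1 1369695_at stood at 66.9 in IV-V replicate 5 against 60.5 to 60.9. The 2 Gata4 probe sets did not share a sample that stood apart.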

How the results depend on the processing

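Over all results and alternatives, 1662 values were held unchanged and 0 reversed. For a probe set, unchanged meant the same direction and the same side of the call (adjusted p and 2-fold together). The 1662 also include counts of called probe sets, held unchanged where they moved by at most 1.5-fold. Members called in Sertoli cells ran from 4 to 5 against germ cells when single samples were left out. Against tubules they ran from 3 to 4 over the other alternatives. In 10 of the 1662 the adjusted p alone crossed 0.05: 5 for Gata1 and 2 for Gata4 1370293_at in Sertoli cells against tubules, and 3 F-tests, of which Gata4 1370293_at passed without I replicate 2. The 1.5-fold threshold put Wt1 1377223_at (0.77 on the log2 scale) and Gata1 (0.79) among the stage-regulated, 2 of 6 members, where 11052 of all probe sets, or 49.7%, met it. Calls between adjacent stages rose from 0 to 2 without the samples of high actin ratio, and ran from 0 to 2 when single samples were left out. Quantile normalization moved Dhh in Sertoli cells against tubules to 0.87, below 2-fold. With the 25th percentile as the constant, 339 probe sets were higher in whole testis, against 520. The Gata1 difference between Sertoli cells and germ cells ran from 0.80 to 1.03 when single samples were left out. Centred on the other member genes, the F-test was passed by Wt1 1377223_at (adjusted p = 0.0470) but not by Gata1 (0.0522) or Gata4 1387894_at (0.192). The cause of these shifts was not tested. Replicate numbers did not meet the criterion for pairing, a correlation of deviations over 0.1 in every pair: it was over 0.1 in 41 of 216 pairs with the same number. The mean was 0.0568 for these and -0.0141 for other pairs, and as a hint of shared origin 36 of 49 samples correlated best with their own number. The replicate block changed no call, with F-test adjusted p of 7.70e-06 for Wt1 1377223_at, 0.00540 for Gata4 1387894_at and 3.20e-05 for Gata1. Signals near the array medians limit what can be said of Wt1 1369695_at, Dhh, Gata1 and Gata4 1370293_at.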

Other observations

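Differences between members within a tubule sample are given here on the log2 scale. Gata1 minus Gata4 1387894_at was -0.26 ± 0.13 at VIIa.b and -0.998 ± 0.55 at IX-XI (SD, n = 5), and these groups overlapped through 1 IX-XI sample at -0.0374. Wt1 1377223_at minus Gata4 1387894_at was 0.44 ± 0.15 at VI and -0.13 ± 0.12 at XIII-XIV (SD, n = 5), and the samples of VI and XIII-XIV did not overlap. These differences are of a member against another on the same array, so they describe no level, and they were not tested.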
